A study of Mus musculus with 6 samples.

Results

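The nuclear genes for the respiratory chain and the ATP synthase were examined in D10 cells, a cloned mouse helper T cell line that grows in suspension. The members were the protein-coding genes of the deposited table whose symbols start with Nduf, Uqcr, Atp5 or Cox followed by a digit from 4 to 8, together with Sdha, Sdhb, Sdhc, Sdhd, Cycs and Cyc1. This rule, which used no measured value, gave 102 genes of the 41079 in the table. Of these, 99 were above 0 in at least 1 library and 95 had a mean of at least 1 TPM (a read count divided by gene length and scaled to the same total in each library) and were tested among 12227 genes. The other 7 were Cox4i2, Cox6b2, Cox7b2, Cox8b, Cox8c, Ndufa4l2 and Ndufb11b, of which Cox7b2, Cox8c and Ndufb11b were at 0 in every library.

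Non-acclimated cells were kept for 24 h at 37 °C and cold-acclimated cells for 24 h at 26 °C, with 3 replicates each, and poly(A)+ RNA was sequenced with strand-specific, paired-end libraries. The labels give all 6 libraries as the same cloned line and name no genetic change or drug in either group. The study combined RNA from an older and a newer extraction, the labels do not say which library belongs to which, and no value within an extraction batch could be computed. The libraries held 16899628 to 31290854 reads on genes.

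The label of a CD4+ helper T cell was checked against 16 T cell markers, of which 14 passed the filter and whose summed level was 3493 to 5263 TPM in non-acclimated and 3843 to 5032 TPM in cold-acclimated cells. Cd3e lay between 476 and 874 TPM and Gata3, the master regulator of type 2 helper cells, between 387 and 751 TPM. Cd5 and Trbc1 were at most at 0.0454 and 0.214 TPM in any library, whereas Trbc2, also a T cell receptor beta constant gene, lay between 305 and 616 TPM. Cd28, a costimulatory receptor, was at 7.35 and 5.61 TPM in replicate 2 of the non-acclimated and cold-acclimated groups and at 27.9 to 54.5 TPM in the other 4 libraries, and Cd3d was at 64.3 and 78.6 TPM in replicate 2 and at 240 to 332 TPM in the others. Cd4 itself was at 1.09, 0.0351 and 310 TPM in non-acclimated replicates 1, 2 and 3 and at 1.299, 0.352 and 328 TPM in cold-acclimated replicates 1, 2 and 3. Trac, the constant part of the T cell receptor alpha chain, was at 14.96 and 12.8 TPM in replicate 2 of the groups and between 129 and 207 TPM in the other 4 libraries. Cd4 was thus near 0 in replicates 1 and 2 of both groups and high in replicate 3 of both, and the libraries did not match a uniform CD4+ clone by these markers. The counts of called genes are therefore also given for replicates 1 and 2 alone, as are the genes that stood out by replicate 3. The 8 B cell markers summed to at most 1.11 TPM and the 8 macrophage and monocyte markers to 2.87 to 21.5 TPM. Of the 7 erythroid markers, Hba-a1 alone passed the filter, at 79.9 to 485 TPM in non-acclimated and 60.8 to 473 TPM in cold-acclimated cells, highest in replicate 3 of each group. The part of these differences between replicates in the results was not tested.

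The respiratory chain passes electrons from NADH, through complex I, and from succinate, through complex II, to ubiquinone, then through complex III and cytochrome c to complex IV, which reduces oxygen. Complexes I, III and IV pump protons across the inner mitochondrial membrane, and the ATP synthase uses the gradient to make ATP. Complex II is encoded in the nucleus alone, whereas the others also contain subunits made from mitochondrial DNA, and all are put together by assembly factors that are not part of the finished enzyme. In T cells, respiration and its spare capacity are known to change with activation and with the resting or effector state.

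On TPM as deposited, most of these transcripts lay near their non-acclimated level in cold-acclimated cells. Of the 95 tested members, 0 were upregulated and 2 were downregulated, Sdha, the catalytic flavoprotein of complex II, and Ndufaf7, an assembly factor of complex I (limma on log2(TPM + 1), with an adjusted p under 0.05 by the Benjamini-Hochberg method and a change of 1 or more on the log2 scale). Among all tested genes, 2.63% were upregulated and 16.0% downregulated by the same rule, so that 2.11% of the members stood against 16.0% of all genes for lower calls. At an unadjusted p under 0.05, 1 member was higher and 7 were lower, against 948 and 3664 of the 12227 tested genes. The median log2 fold change was 0.00 over the members and −0.34 over all tested genes. Members are abundant transcripts, and among the 4984 tested genes with a mean of at least 30 TPM the share of lower calls was 9.35%, against 1 of 83 members, and that of higher calls 2.87%, against 0 of 83.

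On the same TPM, the 95% interval of the log2 fold change lay between −1 and 1 for 64 of the 95 members. This was so for 24.5% of all tested genes. The standard errors of the tested members ran from 0.20 to 0.68, with a median of 0.27. The TPM of the 2 groups did not overlap, with cold-acclimated cells higher, for 7 members (Atp5f1d, Atp5mc1, Atp5mc3, Ndufaf4, Ndufv3, Uqcrfs1 and Uqcrh) against 9.69% of all tested genes. Cold-acclimated cells were lower without overlap for 10 members (among them Cox6a2, Ndufa5, Ndufab1, Ndufaf1, Ndufaf2, Ndufaf7, Ndufs7, Sdha and Sdhc) against 31.4% of all tested genes.

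TPM gives shares of a library, and a common change of scale moves every gene. With a median of ratios rescaling, in which a library is divided by the median, over genes, of the ratio of each value to that gene's geometric mean, the median over all tested genes moved by 0.36, to 0.02, and that over the members moved with it to 0.40. The members' median stood 0.34 above that of all genes on TPM and 0.38 above it after this rescaling. Abundant genes lay closer to the members. At a mean of at least 30 TPM, the median on TPM was −0.11 over all tested genes and 0.02 over the members. Under the rescaling 6.56% of all genes were upregulated and 8.79% downregulated, and of the members 1 was upregulated (Ndufaf4) and 0 were downregulated. At the adjusted p alone, the rescaling put 5 members higher (Ndufaf4, Atp5mc1, Atp5mc3, Uqcrfs1 and Uqcrh). Of all 12227 tested genes, 1019 were higher at this cut. In bulk RNA, fewer cells with a transcript and less of it per cell cannot be told apart.

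The replicate numbers were taken to pair the libraries, but the main fit, its intervals and the exact permutation tests did not use this pairing. With the replicate number as a block, 0 members were upregulated (3.75% of all genes) and 4 were downregulated (21.9% of all genes), namely Sdha, Ndufaf7, Ndufaf2 and Cox6a2. With replicates 1 and 2 alone, 1 member was upregulated (Ndufaf4; 5.34% of all genes) and 5 were downregulated (among them Sdha, Ndufaf7, Ndufaf2 and Ndufa9; 25.3% of all genes). The count of lower calls was 6 when cold-acclimated replicate 3 was omitted, 1 when non-acclimated replicate 3 was omitted, and 0 when any of the other 4 libraries was, so no call on a member held under every omission. The shares of all genes called under these omissions are not given here, so these counts cannot be set against them.

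**Figure D1:**
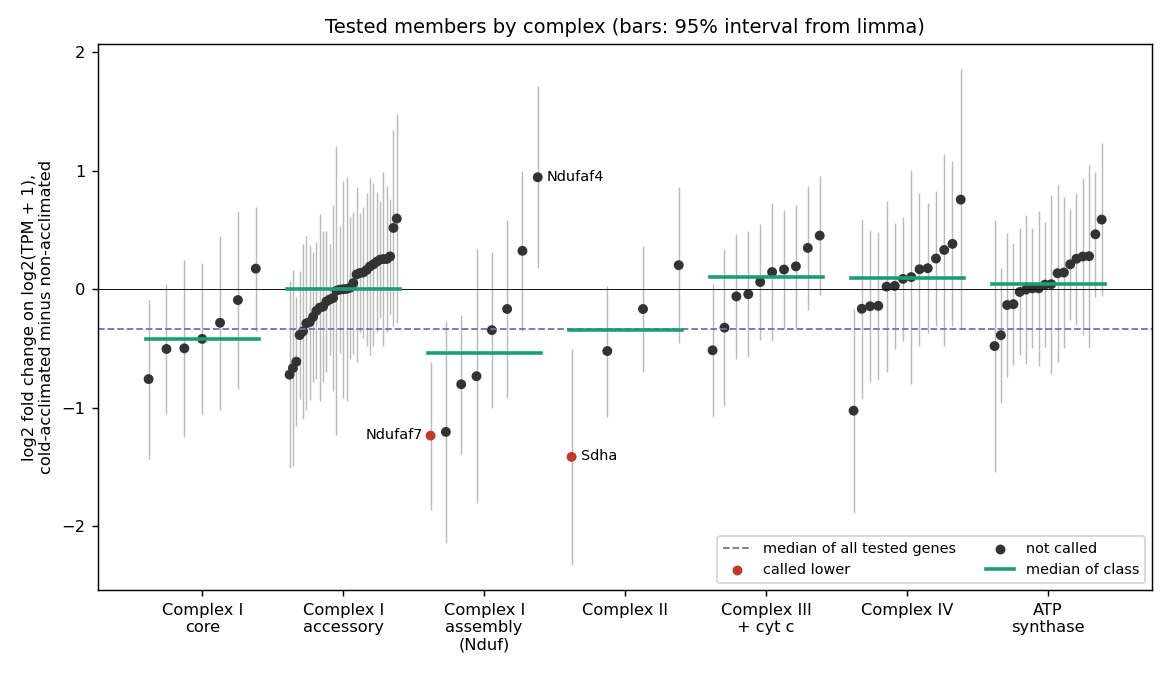
Log2 fold change of each tested member except the copy Ndufab1-ps (points, ordered within a class) on the log2(TPM + 1) scale, cold-acclimated minus non-acclimated, with 95% intervals (grey bars), the median of each class (green) and the median of all tested genes (dashed, −0.34). Sdha and Ndufaf7 (red) were the 2 members called; complexes III and IV and the ATP synthase centre slightly above 0, while the complex I core subunits centre at −0.42.

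Complex II oxidises succinate to fumarate in the citric acid cycle and hands the electrons to ubiquinone. It has a matrix head, made of Sdha with its flavin and Sdhb with its iron-sulfur clusters, and a membrane anchor made of Sdhc and Sdhd. Sdha (GRCm39 chr13:74470374-74498359, minus strand) was at 228, 238 and 192 TPM in non-acclimated and 69.2, 51.2 and 152 TPM in cold-acclimated cells. Every cold-acclimated value lay below every non-acclimated one, although cold-acclimated replicate 3 was far closer to the non-acclimated libraries than the other two. The log2 fold change was −1.41 ± 0.39 (SE, n = 3 per group; limma, adjusted p = 0.0418).

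The Sdha call was near the threshold. The fold change stayed negative under each alternative, at −1.86 without cold-acclimated replicate 3 (limma, adjusted p = 0.00368) and −1.95 with replicates 1 and 2 alone (limma, adjusted p = 0.00446). The adjusted p was 0.0236 with the replicate block, 0.0815 after median of ratios rescaling, where the fold change was −1.02, and 0.0651 to 0.136 when any 1 library other than cold-acclimated replicate 3 was left out. Between 1317 and 6619 reads in a library lay behind these values.

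The other 3 subunits did not pass the test. Sdhb was at 173, 173 and 177 TPM in non-acclimated and 143, 133 and 195 TPM in cold-acclimated cells, with a log2 fold change of −0.17 ± 0.23 (95% interval −0.69 to 0.36), a difference whose sign turned under median of ratios rescaling (0.23). Sdhc was at 178, 202 and 186 TPM in non-acclimated and 132, 104 and 164 TPM in cold-acclimated cells, lower without overlap (log2 fold change −0.52 ± 0.24, limma adjusted p = 0.151). Sdhd was at 171, 282 and 230 TPM in non-acclimated and 215, 234 and 336 TPM in cold-acclimated cells (log2 fold change 0.20 ± 0.28). Sdhb and Sdhd overlapped between the groups.

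The balance of the 4 transcripts within a library does not depend on scaling. Sdha ranked 1st, 2nd and 2nd of the 4 in non-acclimated replicates 1, 2 and 3 and last in each cold-acclimated library. The ratio of Sdha to Sdhb TPM was 1.32, 1.37 and 1.09 in non-acclimated and 0.484, 0.384 and 0.776 in cold-acclimated cells. The ratio of Sdha to Sdhd was 1.33, 0.844 and 0.838 in non-acclimated and 0.322, 0.219 and 0.451 in cold-acclimated cells. Neither ratio overlapped between the groups. Both were chosen after the values had been seen, so no p-value is given for them.

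**Figure D2:**
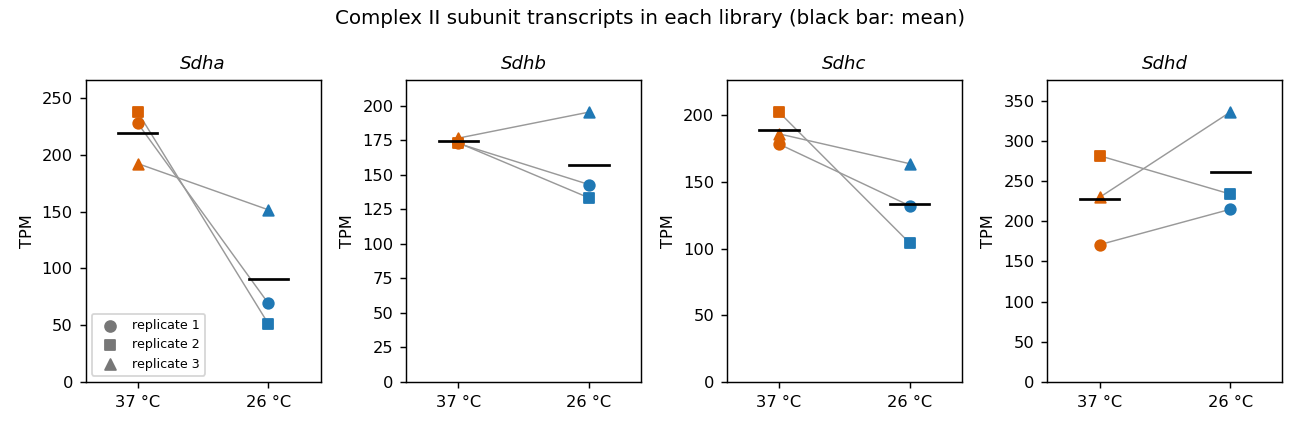
TPM of the 4 complex II subunit genes in each library at 37 °C (orange) and 26 °C (blue), with lines joining libraries of the same replicate number and black bars for group means. Sdha fell in each replicate pair, from 228, 238 and 192 to 69.2, 51.2 and 152 TPM, while Sdhb and Sdhd overlapped between the groups.

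The promoters of Sdha and Sdhb are shown because these genes encode partners in the matrix head whose transcript balance differed between the groups, and those of Ndufaf4 and Ndufaf7 because these assembly factors stood at the 2 ends of their class. Each is the 250 bases before the start of the RefSeq gene on build GRCm38.p6, 5′ to 3′ on the gene's strand. Capitals mark matches on either strand to GCGCATGC (a core of the NRF-1 motif), CCGGAAG (an ETS motif, the kind bound by GABP), AAGATGGC (YY1), GGGCGG (SP1) or TGACGTCA (the cyclic AMP response element).
Sdha (chr13:74350241-74350490, minus strand): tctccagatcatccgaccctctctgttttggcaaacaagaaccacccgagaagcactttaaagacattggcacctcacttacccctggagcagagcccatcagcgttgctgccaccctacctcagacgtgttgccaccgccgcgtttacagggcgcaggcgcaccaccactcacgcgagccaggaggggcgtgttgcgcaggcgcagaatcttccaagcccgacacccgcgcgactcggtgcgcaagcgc
Sdhb (chr4:140961021-140961270, plus strand): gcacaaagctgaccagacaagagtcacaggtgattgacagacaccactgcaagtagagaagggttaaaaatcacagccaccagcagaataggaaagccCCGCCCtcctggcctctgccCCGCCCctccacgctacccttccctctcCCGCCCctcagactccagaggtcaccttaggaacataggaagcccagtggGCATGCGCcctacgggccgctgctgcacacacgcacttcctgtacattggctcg
Ndufaf7 (chr17:78936885-78937134, plus strand): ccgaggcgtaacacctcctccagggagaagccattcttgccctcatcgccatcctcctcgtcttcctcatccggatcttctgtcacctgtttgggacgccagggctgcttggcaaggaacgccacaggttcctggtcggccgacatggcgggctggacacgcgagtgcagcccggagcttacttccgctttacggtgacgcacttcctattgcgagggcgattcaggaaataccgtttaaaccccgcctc
Ndufaf4 (chr4:24897833-24898082, plus strand): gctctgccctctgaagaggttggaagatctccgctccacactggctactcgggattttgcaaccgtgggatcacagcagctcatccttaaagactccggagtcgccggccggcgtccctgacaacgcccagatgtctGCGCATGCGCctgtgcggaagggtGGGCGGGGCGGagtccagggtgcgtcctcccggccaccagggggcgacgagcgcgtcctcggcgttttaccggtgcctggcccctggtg

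The 250 bases of Sdha and Ndufaf7 shown held none of these letters. That of Sdhb held 1 NRF-1 match and 3 SP1 matches, and that of Ndufaf4 held 2 overlapping NRF-1 matches and 2 SP1 matches. RefSeq windows of 300 bases, from 250 before to 50 after each annotated start, were found for 81 of the 102 members and 17386 protein-coding genes in all, some with more than 1 start. In these longer windows Ndufaf7 also held the SP1 letters and Sdhb the ETS letters, and Sdha still held none. The NRF-1 letters were in 13 of the 81 members (16.0%), 3.97% of all those genes and 6.50% of the tested ones. The ETS letters were in 19 members (23.5%), 13.0% of all genes and 22.6% of the tested ones, and the YY1 letters in 11 members (13.6%), 3.58% of all genes and 5.97% of the tested ones. The SP1 letters were in 46.9% of the members against 69.1% of the tested genes, and the cyclic AMP response element in 6.17% against 3.75%. A match is a run of letters and not a known site, and its absence says only that the letters are not in the window.

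Complex I is the largest complex of the chain. Its 7 nuclear core subunits hold the flavin and the iron-sulfur clusters that carry electrons from NADH to ubiquinone, and 0 of the 7 passed the test. Their median log2 fold change was −0.42, near the −0.34 of all tested genes, and it was −0.02 after median of ratios rescaling. The summed TPM was 1067, 1116 and 1058 in non-acclimated and 899, 679 and 1054 in cold-acclimated cells. The groups did not overlap, but cold-acclimated replicate 3 lay just under the lowest non-acclimated library (exact permutation test, two-sided, p = 0.1, the smallest that 3 against 3 allows; 0.8 after adjustment over the 8 classes). After median of ratios rescaling, the log2 change of this sum turned positive.

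Ndufs3, an iron-sulfur protein fraction subunit, had the highest log2 fold change of the core subunits, at 139, 170 and 138 TPM in non-acclimated and 200, 160 and 147 TPM in cold-acclimated cells (0.17 ± 0.22). Ndufv1, which binds NADH and the flavin and had the highest mean TPM of the class, was at 203, 216 and 276 TPM in non-acclimated and 193, 127 and 274 TPM in cold-acclimated cells (−0.28 ± 0.32, and 0.12 after median of ratios rescaling). Both overlapped between the groups.

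The accessory subunits of complex I surround the core. The class held 33 genes, among them the low copies Ndufb4b, Ndufb4c and Ndufs6b, and 0 passed the test. With these copies included, the median log2 fold change was 0.00, with 16 genes above and 17 below 0. For 25 of the 33 the 95% interval lay between −1 and 1. The summed TPM of the class was 4610, 4261 and 4460 in non-acclimated and 4392, 3916 and 4824 in cold-acclimated cells, overlapping between the groups (exact permutation test, two-sided, p = 0.9). Ndufs5 had the lowest fold change, at 179, 179 and 232 TPM in non-acclimated and 89.0, 93.9 and 196 TPM in cold-acclimated cells (−0.72 ± 0.34; limma adjusted p = 0.164, and 0.0451 with the replicate block). With replicates 1 and 2 alone its fold change was −0.96 (limma adjusted p = 0.0175). It was lower in each replicate pair, and cold-acclimated replicate 3 lay above non-acclimated replicates 1 and 2.

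Ndufb7 had the highest mean TPM of the accessory subunits, with 286, 293 and 315 TPM in non-acclimated and 385, 313 and 389 TPM in cold-acclimated cells (0.28 ± 0.21; limma adjusted p = 0.375). The highest fold change belonged to Ndufb4b, a copy of Ndufb4 with 2 to 12 reads in a library and 0.353 to 2.83 TPM (0.60 ± 0.38). Ndufb4b lies on the same strand as Dock8, with which it shares positions, so its reads are uncertain. Ndufab1, the mitochondrial acyl carrier protein, which complex I contains and fatty acid and iron-sulfur synthesis also use, was at 51.9, 77.0 and 57.1 TPM in non-acclimated and 38.3, 38.2 and 42.7 TPM in cold-acclimated cells (−0.61 ± 0.23; limma adjusted p = 0.0996). Its groups did not overlap.

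Copies of subunit genes share sequence with their parents, and reads can be split between them. Ndufab1-ps, named as a pseudogene but listed as protein-coding, was at 25.0, 11.7 and 4.22 TPM in non-acclimated and 18.03, 4.80 and 4.60 TPM in cold-acclimated cells (−0.49 ± 0.68). It was highest in replicate 1 of each group. Ndufb4c and Ndufs6b stayed at 7.75 TPM or less. Of the tested members, 5 share positions on their strand with another tested gene, namely Atp5f1b with Mir677, Atp5f1c with Gm23608, Cox7c with Snord138, Ndufb4b with Dock8 and Ndufv2 with Ankrd12.

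The 8 complex I assembly factors named Nduf were the class with the widest range of fold changes. Their log2 fold changes ran from −1.23 for Ndufaf7 to 0.94 for Ndufaf4, with 6 below and 2 above 0. Ndufaf7, a methyltransferase that acts during assembly (GRCm39 chr17:79244535-79255481, plus strand), was at 38.3, 39.0 and 25.7 TPM in non-acclimated and 15.6, 11.3 and 14.8 TPM in cold-acclimated cells. The groups did not overlap, and the log2 fold change was −1.23 ± 0.27 (limma, adjusted p = 0.0211). The adjusted p was 0.0136 with the replicate block and 0.0612 after median of ratios rescaling, where the fold change was −0.85. It was 0.0764, 0.0910, 0.0653 and 0.0775 without non-acclimated replicate 1, non-acclimated replicate 2, cold-acclimated replicate 1 and cold-acclimated replicate 2, and 0.0206 and 0.0201 without replicate 3 of the non-acclimated and of the cold-acclimated group (limma).

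Ndufaf4, which acts early in complex I assembly (GRCm39 chr4:24898083-24905001, plus strand), had the highest log2 fold change of all members. It was at 18.7, 23.2 and 43.8 TPM in non-acclimated and 55.9, 48.3 and 53.2 TPM in cold-acclimated cells, and non-acclimated replicate 3 stood close to the cold-acclimated libraries. The fold change of 0.94 ± 0.33 did not pass the test (limma, adjusted p = 0.0783). It passed the adjusted p with the replicate block (0.0396), and both thresholds after median of ratios rescaling (1.33; limma adjusted p = 0.0320), without non-acclimated replicate 3 (1.29; limma adjusted p = 0.0213) and with replicates 1 and 2 alone (1.28; limma adjusted p = 0.0119). The ratio of Ndufaf4 to Ndufaf7 TPM, which no scaling changes, was 0.487, 0.596 and 1.71 in non-acclimated and 3.58, 4.28 and 3.60 in cold-acclimated cells. This ratio was chosen after its values had been seen, so no p-value is given for it.

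Ndufaf1 and Ndufaf2, a member of the early membrane arm assembly and a chaperone of late intermediates, were lower without overlap. Ndufaf1 was at 20.3, 23.2 and 20.2 TPM in non-acclimated and 13.2, 9.07 and 13.4 TPM in cold-acclimated cells (−0.80 ± 0.25; limma adjusted p = 0.0583). Ndufaf2 was at 24.5, 19.4 and 34.4 TPM in non-acclimated and 7.93, 7.37 and 19.2 TPM in cold-acclimated cells (−1.20 ± 0.40; limma adjusted p = 0.0696, 0.0124 with the replicate block, and 0.0112 with replicates 1 and 2 alone). Ndufaf8, which works with the arginine hydroxylase Ndufaf5 and had the second highest fold change of the class, was at 31.6, 33.0 and 41.7 TPM in non-acclimated and 63.2, 33.7 and 40.7 TPM in cold-acclimated cells (0.32 ± 0.29). The high value of cold-acclimated replicate 1 set the Ndufaf8 difference, and Ndufaf3, Ndufaf5 and Ndufaf6 overlapped between the groups.

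**Figure D3:**
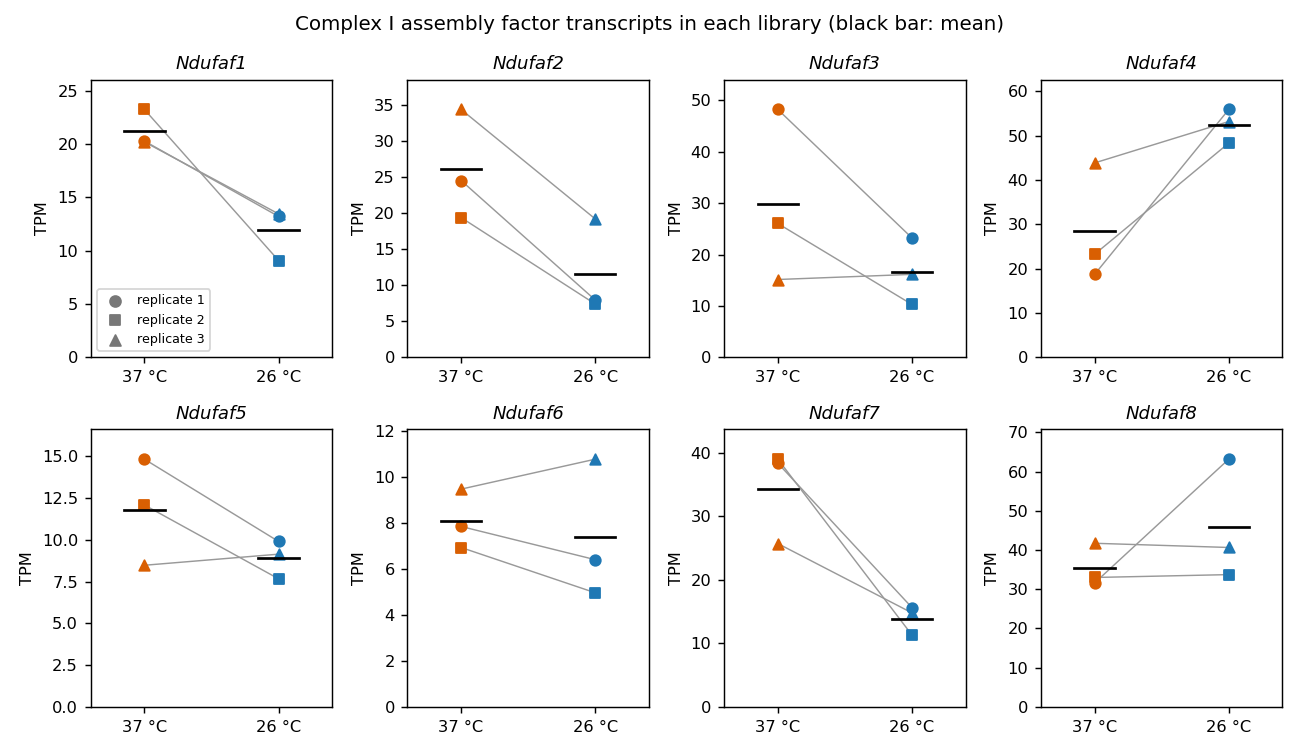
TPM of the 8 complex I assembly factors named Nduf in each library at 37 °C (orange) and 26 °C (blue), with lines joining libraries of the same replicate number and black bars for group means. Ndufaf7, Ndufaf1 and Ndufaf2 were lower in every replicate pair, and Ndufaf4, at 18.7, 23.2 and 43.8 against 55.9, 48.3 and 53.2 TPM, did not pass the test.

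Complex III moves electrons from reduced ubiquinone to cytochrome c. None of its 9 nuclear members and cytochrome c (Cycs) passed the test, the class median was 0.10, and for 9 of the 10 genes the 95% interval lay between −1 and 1. Uqcrh, the hinge protein near cytochrome c1, had the highest fold change, at 355, 323 and 340 TPM in non-acclimated and 497, 511 and 393 TPM in cold-acclimated cells, without overlap (0.45 ± 0.21; limma adjusted p = 0.166, and 0.0467 after median of ratios rescaling). Uqcrc1, a core protein, had the lowest, at 318, 378 and 390 TPM in non-acclimated and 235, 212 and 322 TPM in cold-acclimated cells (−0.51 ± 0.24; limma adjusted p = 0.163).

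Cyc1 and Cycs overlapped between the groups. Cyc1, cytochrome c1, was at 163, 161 and 201 TPM in non-acclimated and 148, 97.1 and 185 TPM in cold-acclimated cells (−0.32 ± 0.28, and 0.07 after median of ratios rescaling). Cycs, the soluble carrier that also triggers apoptosis in the cytosol, was at 108, 168 and 106 TPM in non-acclimated and 130, 132 and 151 TPM in cold-acclimated cells (0.14 ± 0.25, and −0.04 with replicates 1 and 2 alone). Uqcrfs1, the Rieske iron-sulfur protein, was at 105, 153 and 133 TPM in non-acclimated and 154, 169 and 172 TPM in cold-acclimated cells (0.35 ± 0.22). Its groups lay just apart, by less than 1 TPM.

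Complex IV, cytochrome c oxidase, reduces oxygen, and several of its subunits exist as a common form and a form of muscle, lung or testis. Of 20 members 14 were tested and 0 passed, with a class median of 0.09. Cox4i1, which joins the complex early in its assembly, had the highest mean TPM, at 815, 663 and 672 TPM in non-acclimated and 1072, 795 and 730 TPM in cold-acclimated cells (0.26 ± 0.24). Cox6a1 was at 790, 680 and 903 TPM in non-acclimated and 778, 530 and 879 TPM in cold-acclimated cells (−0.14 ± 0.27, and 0.26 after median of ratios rescaling). Both overlapped between the groups.

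The other common forms were also abundant and overlapped. The lowest and highest library values were 391 and 548 TPM for Cox6b1 (0.09 ± 0.23), 261 and 389 TPM for Cox7a2 (0.18 ± 0.24), 213 and 366 TPM for Cox7b (0.17 ± 0.28) and 401 and 886 TPM for Cox8a (0.10 ± 0.39). Cox7a2l, a relative of Cox7a2 that joins complexes III and IV, was at 302, 282 and 145 TPM in non-acclimated and 307, 366 and 220 TPM in cold-acclimated cells (0.33 ± 0.35). Ndufa4, which was first assigned to complex I and belongs to complex IV, was at 554, 595 and 754 TPM in non-acclimated and 477, 419 and 884 TPM in cold-acclimated cells (−0.16 ± 0.33, and 0.23 after median of ratios rescaling).

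The tissue-restricted forms were at or near 0 at both temperatures. Cox7b2 and Cox8c were at 0 in every library, and Cox4i2, Cox6b2, Cox8b and Ndufa4l2 stayed under 0.6 TPM. Cox6a2, the muscle form, was at 2.66, 1.48 and 1.26 TPM in non-acclimated and 0.877, 0 and 0.297 TPM in cold-acclimated cells, from 12, 8 and 10 reads and 5, 0 and 2 reads, lower without overlap (−1.02 ± 0.37; limma adjusted p = 0.0853, and 0.0284 with the replicate block). Cox7a1, also a muscle form, was at 1.90, 1.06 and 0.903 TPM in non-acclimated and 2.76, 6.04 and 1.06 TPM in cold-acclimated cells, from at most 25 reads (0.76 ± 0.47; limma adjusted p = 0.287). The common forms made up nearly all of the complex IV signal in every library.

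The ATP synthase couples a catalytic head in the matrix to a ring of c subunits in the membrane. All 18 members were tested, 0 passed, the class median was 0.04, and for 15 the 95% interval lay between −1 and 1. Atp5f1b, the catalytic beta subunit, was the most abundant member of all, at 1585, 2445 and 2141 TPM in non-acclimated and 1677, 1967 and 2556 TPM in cold-acclimated cells (0.01 ± 0.28, and −0.12 with replicates 1 and 2 alone). Atp5if1, which blocks the enzyme from running backwards, was at 137, 116 and 96.0 TPM in non-acclimated and 126, 123 and 107 TPM in cold-acclimated cells (0.04 ± 0.23). Both overlapped between the groups.

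Atp5mc1, Atp5mc2 and Atp5mc3 encode the same mature c subunit behind different import sequences. Atp5mc1 was at 134, 199 and 210 TPM in non-acclimated and 250, 222 and 346 TPM in cold-acclimated cells, without overlap, and had the highest fold change of the class (0.59 ± 0.28; limma adjusted p = 0.166, and 0.0340 after median of ratios rescaling). Atp5mc3 was at 279, 341 and 310 TPM in non-acclimated and 517, 385 and 389 TPM in cold-acclimated cells, also without overlap (0.46 ± 0.23; limma adjusted p = 0.177, and 0.0420 after median of ratios rescaling). Atp5mc2 was at 448, 301 and 330 TPM in non-acclimated and 381, 258 and 342 TPM in cold-acclimated cells, with overlap (−0.13 ± 0.26, and 0.27 after median of ratios rescaling).

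Within a library, Atp5mc2 made up 52.0%, 35.8% and 38.8% of the summed c subunit TPM in non-acclimated and 33.2%, 29.8% and 31.8% in cold-acclimated cells. The groups did not overlap. The shares were chosen after the values had been seen, so no p-value is given for them. The lowest fold change of the class belonged to Atp5me, the e subunit at dimer interfaces, at 141, 50.2 and 172 TPM in non-acclimated and 97.5, 68.1 and 67.4 TPM in cold-acclimated cells (−0.48 ± 0.46). Non-acclimated replicate 2 was the lowest of the 6 libraries for Atp5me.

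Summed over all members, the transcripts took 2.24%, 2.25% and 2.34% of a library's TPM in non-acclimated and 2.30%, 2.07% and 2.57% in cold-acclimated cells (exact permutation test, two-sided, p = 0.8). The summed TPM of complex II was 750, 895 and 785 in non-acclimated and 559, 523 and 847 in cold-acclimated cells, with cold-acclimated replicate 3 inside the non-acclimated range (exact permutation test, two-sided, p = 0.3). The sums of complex III with cytochrome c, complex IV and the ATP synthase overlapped as well (exact permutation test, two-sided, p = 0.6 for each).

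The balance between complexes was described by ratios of sums. The ratio of summed complex I core to ATP synthase TPM was 0.140, 0.130 and 0.125 in non-acclimated and 0.108, 0.0848 and 0.111 in cold-acclimated cells. The ratio of complex II to ATP synthase was 0.0982, 0.105 and 0.0926 in non-acclimated and 0.0674, 0.0653 and 0.0891 in cold-acclimated cells. Both ratios were lower in the cold without overlap, whereas that of complex IV to ATP synthase overlapped, at 0.786, 0.595 and 0.704 and at 0.758, 0.634 and 0.705. These ratios, too, were formed after the values had been seen, so no p-value is given for them.

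**Figure D4:**
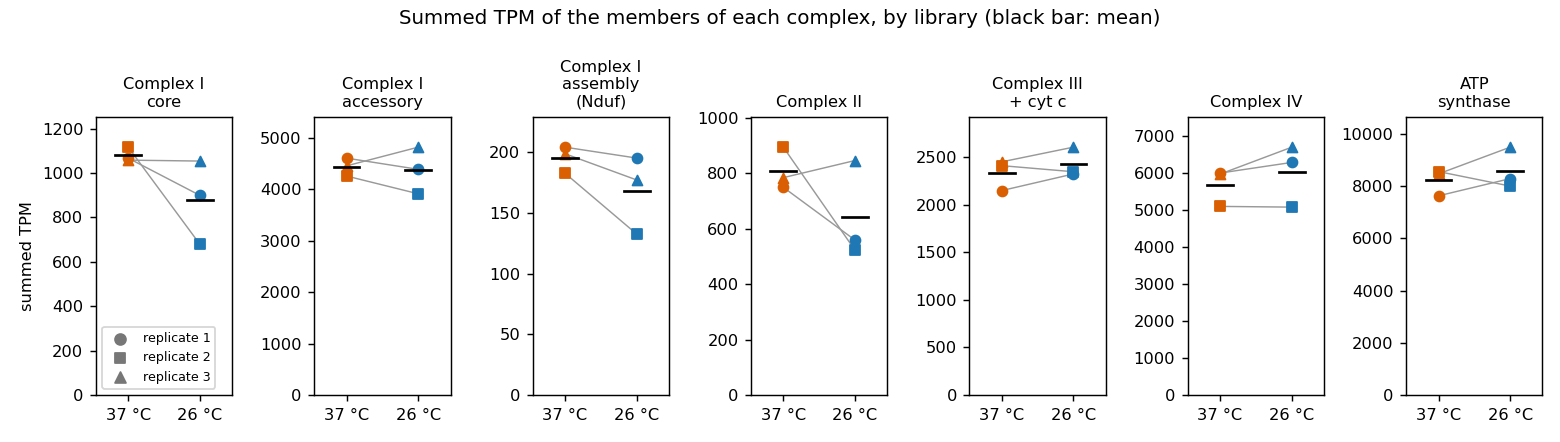
Summed TPM of the members of each class in each library at 37 °C (orange) and 26 °C (blue), with lines joining libraries of the same replicate number and black bars for group means; each axis starts at 0. The complex I core sum was lower in each replicate pair, from 1067, 1116 and 1058 to 899, 679 and 1054 TPM, and the sums of complex II, complex III, complex IV and the ATP synthase overlapped between the groups.

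Assembly factors outside the naming rule were taken from a list of genes known to build the complexes. Of 53 tested, 14 were downregulated (26.4%, against 16.0% of all tested genes) and 1 was upregulated (against 2.63%), with a median log2 fold change of −0.63. Many of these factors were less abundant than most members. Among all tested genes with a mean of at least 30 TPM, 9.35% were called lower, so the 16.0% is not matched to abundance. No share of all genes at the level of these factors is given. Bcs1l, which inserts the Rieske protein into complex III, was at 32.5, 29.4 and 23.4 TPM in non-acclimated and 5.35, 1.81 and 4.95 TPM in cold-acclimated cells (−2.62 ± 0.37; limma adjusted p = 0.00749). Tmem126b, of the complex I membrane arm assembly, was at 34.3, 41.6 and 22.6 TPM in non-acclimated and 5.66, 4.66 and 7.99 TPM in cold-acclimated cells (−2.24 ± 0.32; limma adjusted p = 0.00758). Coa4, a complex IV assembly factor, was at 12.7, 11.6 and 8.84 TPM in non-acclimated and 2.44, 0.985 and 1.603 TPM in cold-acclimated cells (−2.19 ± 0.31; limma adjusted p = 0.00758).

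Bcs1l, Tmem126b and Coa4 stayed past both thresholds without any 1 library and under median of ratios rescaling, with adjusted p of at most 0.0446, 0.0461 and 0.0461 when a library was left out (limma). The single factor that rose, Cox10, was singled out after its values had been seen. It makes the heme A precursor of complex IV and was at 25.4, 30.2 and 37.3 TPM in non-acclimated and 76.6, 61.3 and 63.2 TPM in cold-acclimated cells (1.10 ± 0.24; limma adjusted p = 0.0208). Its adjusted p reached 0.0868 when a library was left out, and it kept its call only when the library left out was replicate 3 of either group. By the complex they serve, 2 of 9 factors of complex I, 1 of 4 of complex II, 3 of 9 of complex III, 7 of 22 of complex IV and 1 of 5 of the ATP synthase were downregulated.

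The count for the whole list moved with single libraries and with scaling. It was 4 to 6 when replicate 1 or 2 of either group was left out, 12 and 18 when replicate 3 of the non-acclimated and of the cold-acclimated group was left out, 20 with replicates 1 and 2 alone (25.3% of all genes), and 6 after median of ratios rescaling, where 8.79% of all genes were downregulated. The shares of all genes with a single library left out are not given here, so those counts cannot be set against them. The ratio of the summed TPM of these factors to that of the members was 0.103, 0.102 and 0.107 in non-acclimated and 0.0768, 0.0771 and 0.0832 in cold-acclimated cells. The groups did not overlap. This ratio was formed after the values had been seen, so no p-value is given for it.

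Coenzyme Q carries electrons from complexes I and II to complex III. Of 20 tested genes of its synthesis and of other entry points, 6 were downregulated (Coq9, Coq3, Etfdh, Pdss2, Coq2 and Dhodh; 16.0% of all tested genes were) and 0 upregulated (2.63% of all), with a median of −0.93. Many of these genes, too, were less abundant than most members, and no share of all genes at their level is given. Coq9, which helps hydroxylate the ring, was at 40.0, 43.2 and 30.1 TPM in non-acclimated and 10.2, 9.03 and 16.5 TPM in cold-acclimated cells (−1.61 ± 0.30; limma adjusted p = 0.0134). Coq3, a methyltransferase of the ring, was at 11.7, 10.6 and 13.6 TPM in non-acclimated and 1.02, 0.700 and 4.78 TPM in cold-acclimated cells (−2.25 ± 0.47; limma adjusted p = 0.0193). Etfdh, which brings in electrons from fatty acid oxidation, was at 47.4, 64.7 and 54.9 TPM in non-acclimated and 9.02, 6.77 and 32.4 TPM in cold-acclimated cells (−2.03 ± 0.52; limma adjusted p = 0.0338). In each, cold-acclimated replicate 3 was the highest of its group, and with replicates 1 and 2 alone the fold changes were −2.003, −2.71 and −2.68.

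The coenzyme Q count was 2 after median of ratios rescaling (8.79% of all genes), with 1 upregulated (6.56% of all). It was 9, with 1 upregulated, in replicates 1 and 2 alone (25.3% and 5.34% of all genes), and 7 without cold-acclimated replicate 3. Omitting non-acclimated replicate 1, 2 or 3 gave 1, 0 and 4, and omitting replicate 1 or 2 of the cold-acclimated group gave 0. For these omissions, too, the shares of all genes are not given. Pdss2, Coq2 and Dhodh were named here for completeness of the count, after their values had been seen.

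Genes that express mitochondrial DNA supply the partner subunits. Of 25 tested, 3 were downregulated (12%, against 16.0% of all tested genes) and 0 upregulated (2.63% of all). Their median was −0.54, against −0.34 over all tested genes, and 12 of the 25 were lower without overlap (31.4% of all). With replicates 1 and 2 alone 4 were downregulated (25.3% of all genes), and after median of ratios rescaling 2 were (8.79% of all genes). Fastkd5, which processes mitochondrial transcripts, was at 7.59, 13.4 and 11.9 TPM in non-acclimated and 1.59, 1.63 and 2.35 TPM in cold-acclimated cells (−2.05 ± 0.30; limma adjusted p = 0.00846). Tfb1m, a methyltransferase of mitochondrial ribosomal RNA, was at 6.64, 7.49 and 6.81 TPM in non-acclimated and 0.272, 0.333 and 2.60 TPM in cold-acclimated cells (−2.13 ± 0.44; limma adjusted p = 0.0186). The third was Mterf2, of the mitochondrial termination factor family (−1.31 ± 0.26; limma adjusted p = 0.0174, and −0.94 after median of ratios rescaling, below the fold threshold), and it and Tfb1m lost the adjusted p without non-acclimated replicate 1 (0.0673 and 0.0629), non-acclimated replicate 2 (0.0820 and 0.0728) or cold-acclimated replicate 1 (0.0721 and 0.0709), as did Tfb1m without cold-acclimated replicate 2 (0.0687).

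Of the 13 mitochondrially encoded subunits, 0 passed the test, 12 had a fold change above 0, and the median was 0.44. At an unadjusted p under 0.05, 1 was higher, against 948 of the 12227 tested genes. With the replicate block 1, mt-Atp8, was upregulated (limma, 3.75% of all genes). It had 1, 0 and 0 reads in non-acclimated and 9, 1 and 6 reads in cold-acclimated cells. The summed TPM of the 13 subunits was 17695, 18349 and 18690 in non-acclimated and 15345, 37413 and 23690 in cold-acclimated cells. Cold-acclimated replicate 1 was thus the lowest and replicate 2 the highest of the 6 libraries. The ratio of this sum to that of the nuclear members was 0.789, 0.814 and 0.799 in non-acclimated and 0.668, 1.81 and 0.921 in cold-acclimated cells, and the groups overlapped. Poly(A) selection captures these transcripts unevenly, and its part in these values was not tested.

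Among 11 tested regulators of respiratory genes, 1 was downregulated (9.09%, against 16.0% of all tested genes) and 0 upregulated (2.63% of all). With replicates 1 and 2 alone 2 were downregulated and 1 upregulated (25.3% and 5.34% of all genes). The 1 gene downregulated in all 6 libraries together was Creb1, a cyclic AMP responsive activator, at 22.5, 23.1 and 17.1 TPM in non-acclimated and 2.67, 2.44 and 4.73 TPM in cold-acclimated cells (−2.38 ± 0.30; limma adjusted p = 0.00699, and at most 0.0443 without any 1 library). Nrf1 and Gabpa, which encode the factors of the NRF-1 and ETS motifs searched above and were named after their values had been seen, overlapped between the groups. The fold change of Nrf1 was −0.10 ± 0.30 (0.26 after median of ratios rescaling) and that of Gabpa was 0.53 ± 0.29 (limma adjusted p = 0.227, and 0.0468 after median of ratios rescaling, where its fold change was 0.93). Ppargc1a and Ppargc1b, coactivators known for raising mitochondrial content in other tissues, were at or near 0 in every library, with at most 0.0279 TPM.

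**Figure D5:**
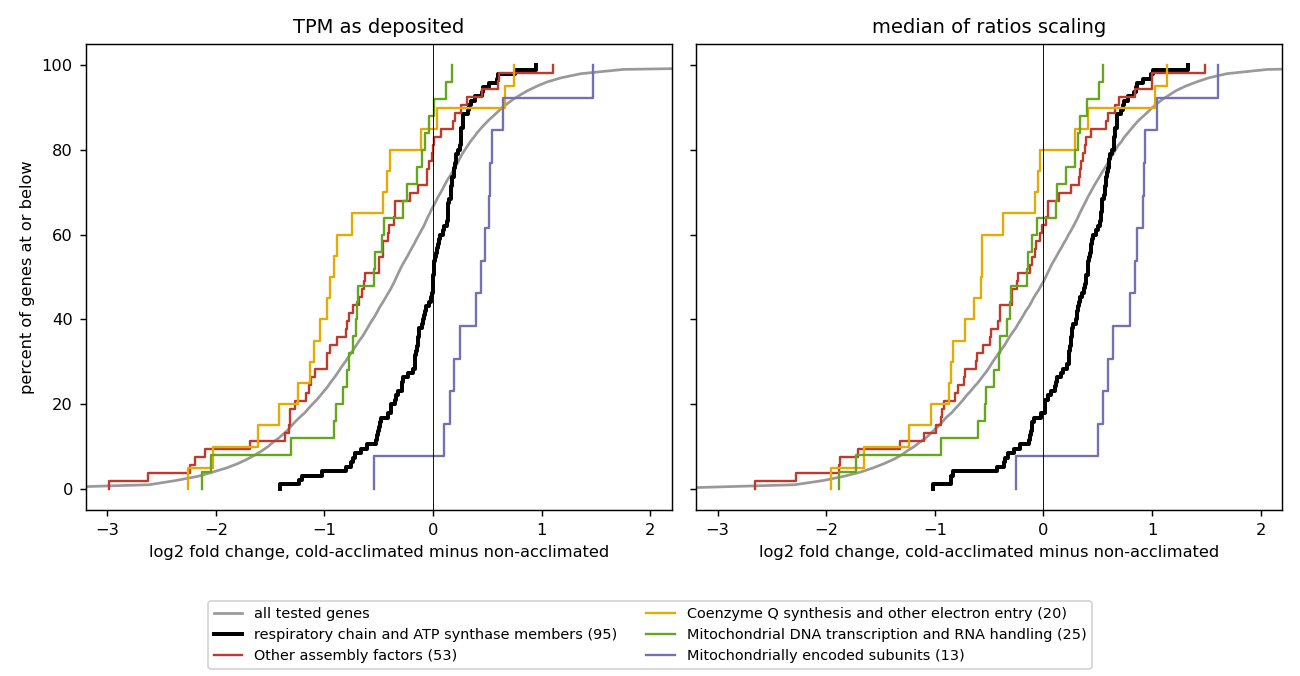
Percent of genes (y axis) at or below a given log2 fold change (x axis) on TPM as deposited (left) and after median of ratios rescaling (right), for the 95 tested members (black), all tested genes (grey) and 4 lists of related genes. On both scales the members form a steep curve to the right of all genes around the median, and other assembly factors (median −0.63 on TPM) and coenzyme Q genes (−0.93) lie to the left of it.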

How the data were processed

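Gene expression was measured by RNA-seq in 3 non-acclimated and 3 cold-acclimated libraries, labelled as biological replicates. The authors deposited 1 table of TPM values per gene, and the submitters' processing notes name FastQC 0.11.7, Trimmomatic 0.38, HISAT2 2.1.0, featureCounts 1.6.3 and build GRCm39. TPM is relative, so a change in a few abundant genes moves all others. For 100% of the genes above 0, the TPM values of the 6 libraries were whole multiples of 1 read (tolerance 1e-06 reads), and the recovered reads gave the depth of each library. A second test on these reads (voom in limma) called 408 genes higher and 1705 lower.

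Cold-acclimated and non-acclimated libraries were compared with limma 3.58.1 in R 4.3.3 (moderated test with a mean trend) on log2(TPM + 1) for genes with a mean of at least 1 TPM, with Benjamini-Hochberg adjustment over all 12227 genes. Fold changes on this scale understate the change of low genes, and ± is the SE of the log2 fold change unless stated otherwise. A gene was called when its adjusted p was under 0.05 and its log2 fold change reached 1 in either direction. Sums over a class were compared with the exact two-sided permutation test in scipy 1.17.1. Across genes, the deviations of same-numbered libraries from their group means correlated at 0.48, 0.50 and 0.51, and those of different numbers at −0.41 to 0.02, so the numbers were taken to pair the libraries. The code was tested on simulated data.

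The members and lists were chosen with earlier results of these data known. The text names members past both thresholds, the highest and lowest fold change and the highest mean TPM of each class, tissue isoform pairs, complex II, Cycs, Cyc1 and Atp5if1, and up to 3 called genes per list. Values of 1 member are not reported here. Other genes were named after their values had been seen. The 2 gene copies Ndufab1-ps and Ndufb11b were set apart as a class after the table had been read, while Ndufb4b, Ndufb4c and Ndufs6b stayed among the accessory subunits. The pseudogene Ndufs5-ps, outside the naming rule, lay between 0.243 and 2.92 TPM. Promoter windows came from RefSeq on GRCm38.p6, matched by gene identifier, while gene positions are on GRCm39. The alternatives were another pseudocount, no filter, 2 other scalings, the replicate block, voom and leaving out each library, and, chosen after seeing the data, replicates 1 and 2 alone.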

Additional observations from a re-analysis of the deposited data

How the results depend on the processing

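With 3 libraries per group, single libraries decided several calls, and low depth limited Ndufb4b, Cox6a2, Cox7a1 and mt-Atp8. Changing the scaling to nuclear protein-coding genes left all 77 results on their side of the threshold. In the following, relative medians are medians of log2 fold changes minus that of all tested genes, and the cause of each change was not tested. Median of ratios rescaling gave 1 member upregulated and 0 downregulated, relative medians of 0.37 for the accessory subunits of complex I, 0.48 for complex III and 0.47 for complex IV, 6 downregulated other assembly factors, and 1 upregulated and 2 downregulated coenzyme Q genes. It turned the sign of Atp5mc2 (0.27), Cox6a1 (0.26), Cyc1 (0.073), Ndufa4 (0.23), Ndufv1 (0.12) and Sdhb (0.23), and moved the log2 change of summed TPM to 0.42 for all members, 0.090 for the complex I core, 0.37 for the accessory subunits, 0.18 for the Nduf assembly factors, 0.45 for complex III, 0.47 for complex IV and 0.46 for the ATP synthase. Without a filter, 1 member, 8 other assembly factors and 1 coenzyme Q gene were downregulated, and the relative median was 0.077 for all members, 0.069 for the accessory subunits, −0.27 for complex II, 0.17 for complex III, 0.18 for complex IV, 0.11 for the ATP synthase, −0.49 for the other assembly factors and −0.47 for the mitochondrial DNA list. The share of all genes called without a filter is not given here, so these counts cannot be set against it. A pseudocount of 0.1 gave relative medians of 0.37 for the accessory subunits and 0.47 for complex IV. The replicate block gave 4 downregulated members and 1 upregulated mitochondrially encoded subunit. It put Cox6a2 and Ndufaf2 past both thresholds (limma adjusted p = 0.0284 and 0.0124), gave 15 downregulated other assembly factors and 7 coenzyme Q genes (21.9% of all genes were downregulated), and changed no other call among the members. Voom gave relative medians of 0.38 for all members and for the accessory subunits, 0.48 for complexes III and IV and −0.22 for the other assembly factors, and Atp5mc2 turned to 0.0023. Replicates 1 and 2 alone, chosen after seeing the data, gave 1 upregulated and 5 downregulated members, 1 upregulated and 2 downregulated regulators, 1 upregulated and 9 downregulated coenzyme Q genes, 20 downregulated other assembly factors, 4 downregulated mitochondrial DNA genes, relative medians of 0.38 for the accessory subunits, 0.37 for complex III, 0.36 for complex IV and −0.18 for the other assembly factors, and turned Atp5f1b (−0.12), Atp5if1 (−0.018), Cox6b1 (−0.047), Cox7a2 (−0.023), Cox8a (−0.048) and Cycs (−0.036).

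When each library was left out in turn, the upregulated members numbered 0 to 1 and the downregulated 0 to 6. The relative medians ran from 0.30 to 0.38 for all members, 0.26 to 0.44 for the accessory subunits, 0.38 to 0.45 for complex III, 0.39 to 0.44 for complex IV, 0.34 to 0.46 for the ATP synthase and −0.38 to −0.15 for the other assembly factors. Calls ran from 4 to 18 downregulated and 0 to 1 upregulated other assembly factors, 0 to 7 downregulated coenzyme Q genes, 1 to 4 downregulated mitochondrial DNA genes and 1 to 2 downregulated regulators. These counts and those of the members have no share of all genes beside them. The log2 change of summed TPM also turned sign, from −0.062 to 0.095 for all members, −0.097 to 0.052 for the accessory subunits, −0.0033 to 0.089 for complex III, −0.0017 to 0.19 for complex IV and −0.013 to 0.11 for the ATP synthase, as did the relative medians of the complex I core (−0.16 to 0.052), the Nduf assembly factors (−0.36 to 0.12) and complex II (−0.12 to 0.11). Signs turned for Atp5f1b (−0.17 to 0.15), Atp5if1 (−0.092 to 0.16), Atp5mc2 (−0.25 to 0.035), Cox6a1 (−0.29 to 0.073), Cox6b1 (−0.064 to 0.18), Cox7a2l (−0.0034 to 0.53), Cox7b (−0.040 to 0.34), Cox8a (−0.14 to 0.43), Ndufa4 (−0.49 to 0.045), Ndufab1-ps (−1.09 to 0.068) and Ndufv1 (−0.55 to 0.0011).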
